A study of Homo sapiens with 5 samples.

Results

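A set of 9 genes of retinoid storage and retinoic acid signalling was examined for TEAD4 binding in LX-2 cells. LX-2 is an established human hepatic stellate cell line, which the study describes as myofibroblastic, that is, activated. The 9 genes, out of 20033 protein-coding genes of GENCODE release 44, were chosen by name: STRA6, LRAT, PLIN2, CRABP2, RARA, RARB, RARG, RXRA and RXRB. A gene was given every TEAD4 peak whose summit (the base of highest signal) lay in its body or within 50 kb of any of its annotated transcription start sites (TSSs), which assigned 24 of 21113 peaks. The study profiled 3 TEAD4 ChIP-seq replicates and 2 inputs (one of them shared by replicates 1 and 2), all from LX-2 cultures that had received only the solvent DMSO, so there was 1 cell line, 1 condition and no treated group. The deposited peak list merges replicates 1 and 3 and holds no value per replicate, so no spread between replicates can be given for any peak, and read depth is unknown. The list carries no expression values, so neither the stellate identity of the line nor transcription of any of these genes could be checked here.

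Quiescent hepatic stellate cells are the main store of vitamin A in the body. Retinol can enter cells through the receptor STRA6, and whether stellate cells use this route was not examined here. Inside the cell it is esterified by LRAT and kept in lipid droplets coated by perilipins such as PLIN2. Retinol can also be oxidised to retinoic acid, which CRABP2 carries to the nucleus, where retinoic acid receptors (RARA, RARB, RARG) bind DNA as partners of retinoid X receptors (RXRA, RXRB). The RAR genes are each known to be transcribed from more than one promoter. Loss of retinoid droplets accompanies the activation of stellate cells into myofibroblasts, and TEAD factors with their coactivator YAP1 act in that activation.

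The sequences that carry the main observations are shown first, as the summit and 50 bases on either side on the plus strand of hg38, or as 27 bases where the place is annotated as UTR. Capitals mark the TEAD motif ACATTCC or the AP-1 motif (TGACTCA or TGAGTCA) on either strand, except at RARG, where they mark the shorter TEAD core CATTCC. The RARB, CRABP2 and upstream RARA stretches hold a full TEAD motif, the RARA intron has a pair of AP-1 motifs, and RARG and RXRA show GC-rich sites beside a TSS without a full motif.
RARB, 1296 bp before a TSS, chr3:25426540-25426640: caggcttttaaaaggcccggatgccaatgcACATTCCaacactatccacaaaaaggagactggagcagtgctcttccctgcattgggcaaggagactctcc
RARB, downstream intron, chr3:25493936-25494036: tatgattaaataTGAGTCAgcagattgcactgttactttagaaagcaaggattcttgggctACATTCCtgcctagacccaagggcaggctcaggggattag
RARA, intron, chr17:40314734-40314834: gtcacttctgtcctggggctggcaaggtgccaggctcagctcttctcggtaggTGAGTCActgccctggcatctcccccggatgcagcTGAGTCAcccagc
RARA, upstream in WIPF2, chr17:40281909-40281935: caaattcttcACATTCCagctacagtc
RARG, intron, chr12:53220917-53221017: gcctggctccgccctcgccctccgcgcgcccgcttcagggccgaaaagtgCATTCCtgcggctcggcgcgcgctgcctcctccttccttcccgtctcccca
RXRA, intron, chr9:134325423-134325523: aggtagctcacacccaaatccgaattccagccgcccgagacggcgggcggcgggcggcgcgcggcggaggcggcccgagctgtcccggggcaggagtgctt
CRABP2, distal, chr1:156664516-156664616: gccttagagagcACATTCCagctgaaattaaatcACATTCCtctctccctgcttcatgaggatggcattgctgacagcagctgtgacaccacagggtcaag

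A TEAD4 peak was assigned to 8 of the 9 genes, against 56.2% of all protein-coding genes under the same rule, and LRAT was the exception. STRA6 and RARA had 6 peaks each, RARB, RXRB and CRABP2 had 3 each, and RARG, RXRA and PLIN2 had 1 each. A count of 6 or more was reached by 4.67% of protein-coding genes. STRA6 reached it only because 2 overlapping peaks were counted apart, as was done for all genes. A summit lay within 2.5 kb of a TSS at 5 genes (STRA6, RARA, RARB, RARG and RXRA), against 16.6% of protein-coding genes. The 9 genes have a median of 7 annotated TSSs, from 3 at CRABP2 to 20 at STRA6 and RARB, and all protein-coding genes a median of 5. When only the TSS of the reference (MANE Select) transcript was counted, an alternative chosen after the values were seen, 2 genes had a summit within 2.5 kb (RARB and RXRA), against 11.1% of the 19061 protein-coding genes with such a transcript. The 9 genes were chosen by name with earlier results of these data known, and these counts were given no test.

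The signal value was identified from the layout of the list, and its exact definition is not given in the sources used here. It was used only to rank peaks within the list, where its median was 68.1 and its range 6.57 to 1074. The 24 peaks ranged from 8.77 to 219.8 with a median of 60.8, and 11 of them (45.8%, Wilson 95% interval 27.9 to 64.9%) lay above the median of the list. Most of them, 14, had the width of 444 bp that 61.8% of all peaks share, and these did not exceed a signal value of 68.5. The 10 narrower ones ranged from 80.4 to 219.8. The highest IDR score (1000, IDR being the irreproducible discovery rate between replicates) was reached by 19 of the 24 peaks (79.2%, interval 59.5 to 90.8%) and by 76.1% of the list. The weakest peak at STRA6 had, alone among the 24, a q-value above 0.05, although its IDR score was also 1000. All intervals on shares cover counting error only, and peaks at the same gene are not independent.

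Of the assigned peaks, 12 of 24 were nearer to a TSS of another protein-coding gene than to any TSS of the named gene. With TSSs of all gene types counted, the named gene was nearest for 11 peaks. The 12 peaks whose nearest coding TSS was at the named gene had a median signal value of 95.6 (39.3 to 219.8). The 12 others had one of 56.6 (8.77 to 118.5). These were peaks of RARA, STRA6, RXRB and CRABP2, and for RXRB and CRABP2 they were all the peaks there were.

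Among the genes of uptake and storage, STRA6, the cell surface receptor for retinol bound to its plasma carrier (chromosome 15, 74179466 to 74212267, minus strand), had peaks at both ends of its body. The strongest (74209429 to 74209629, signal value 133.9, above 81.1% of the list) had its summit 196 bp downstream of a TSS of a coding transcript, in a UTR of STRA6 and in an exon of CCDC33, which overlaps it. A second summit lay 64 bp before an internal TSS whose transcript is annotated as a retained intron, at an IDR score of 847 and with 45.7 as its signal value. These internal starts are annotated TSSs, and their use in LX-2 cells was not measured here. The other 4 peaks were weaker than the first. One lay in a UTR at the 3′ end of the gene (signal value 39.3) and one just beyond that end, 3586 bp from a TSS of ISLR, a gene known as a marker of mesenchymal stromal cells (57.0). The last 2 overlapped each other in an intron of CCDC33, 30195 and 30396 bp upstream of STRA6, with 61.2 and 8.77. The 3 STRA6 peaks with an AP-1 motif were the pair around the 3′ end and the weakest one, and none of the 6 had a TEAD motif.

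LRAT, the acyltransferase that makes the stored retinyl esters (chromosome 4, 154626945 to 154753120, plus strand), had no peak in a window of 218.5 kb, longer than that of 88.2% of protein-coding genes. Its nearest summit was 461.5 kb from any of its TSSs, had a signal value of 50.6 and was closest to DCHS2. PLIN2, the lipid droplet coat protein (chromosome 9, 19108375 to 19149290, minus strand), had 1 peak (19161709 to 19162152, signal value 60.5) 12641 bp before its most upstream TSS and 34439 bp before its MANE Select TSS, with neither motif. Because a list above a threshold does not measure weak binding, the empty window says only that no peak passed the authors' IDR threshold there.

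CRABP2, the carrier of retinoic acid (chromosome 1, 156699606 to 156705816, minus strand), had 3 peaks, none closer than 35516 bp and all nearer to other genes. The strongest (156664489 to 156664631, signal value 101.8) lay 41017 bp downstream of the MANE Select TSS and 7837 bp from a TSS of BCAN, and held the TEAD motif 2 times, centred 35 and 13 bp before the summit (sequence above). The other 2 lay 201 bp from a TSS of MRPL24, a mitochondrial ribosomal protein gene, with a signal value of 42.2, and 298 bp from a TSS of HDGF, a growth factor gene, with 56.3. Each held a TEAD motif, so CRABP2 was the only one of the 9 genes with the motif in all its peaks. None of these peaks is tied to CRABP2 by more than distance.

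The receptors differed in number and strength of peaks. RARA (chromosome 17, 40309180 to 40357643, plus strand) had the 2 strongest of the 24, both in introns between its first TSS and an internal coding TSS at 40318281. They lay 3497 bp (40314641 to 40314937, signal value 219.8) and 1520 bp (40316648 to 40316907, signal value 203.1) before that TSS, above 92.5% and 91.1% of the list. The first held a pair of AP-1 motifs, centred 6 and 41 bp after the summit, and the second neither motif. Another intronic peak (40345062 to 40345257, signal value 124.9) lay 54 bp before another internal coding TSS. The other 3 RARA peaks were 24533 to 27270 bp upstream of the gene, in or just beyond the 3′ end of WIPF2 and 3232 to 5969 bp from a TSS of CDC6, with signal values of 44.5 to 118.5. One of them held the TEAD motif, 12 bp from the summit. No summit lay within 2.5 kb of the MANE Select TSS of RARA, and the nearest was 5604 bp into the gene.

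RARB, the receptor gene that is itself a classic target of retinoic acid (chromosome 3, 24687887 to 25597932, plus strand), had 3 peaks in a window of 960.0 kb, all in introns. One (25426368 to 25426811, signal value 49.9, IDR score 874) lay 1296 bp before the nearest TSS and 1673 bp before the MANE Select TSS, with a TEAD motif centred 17 bp before the summit. The RefSeq promoter at the MANE Select TSS (GRCh38.p14) holds a direct repeat of receptor half-sites, the kind of element that RAR and RXR bind together. It is spaced by 5 bases, runs from 53 to 37 bp before the start site and is shown in capitals:
RARB promoter, chr3:25428205-25428231: ggtagGGTTCACCGAAAGTTCActcgc
The summit was 1620 bp upstream of this repeat. The strongest RARB peak (25493879 to 25494108, signal value 122.8) lay 65723 bp into the transcript that starts there, and was the only one of the 24 with both motifs, the TEAD motif centred 14 bp after and the AP-1 motif 35 bp before the summit. The third (signal value 39.6, IDR score 841) was 80795 bp from the same start and had neither.

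RARG (chromosome 12, 53210567 to 53232980, minus strand) had 1 peak (53220838 to 53221112, signal value 178.9, above 88.5% of the list), in an intron 554 bp before an internal coding TSS and 11242 bp into the MANE Select transcript. RXRA (chromosome 9, 134317098 to 134440585, plus strand) also had 1 (134325251 to 134325694, signal value 68.5), 982 bp before its MANE Select TSS, in an intron of longer transcripts. Both windows were rich in G and C, 71.1% and 66.7% of the 201 bases around the summit, above the median of 44.8% over all peaks, and neither held a full TEAD or AP-1 motif. The median over the 24 peaks was 55.7%, and windows at RARA, CRABP2 and RXRB reached 67.7%, 70.1% and 67.7%. A further peak beyond the 3′ end of RXRA (signal value 125.6) was 70.5 kb from a TSS and so fell outside the rule, although RXRA was its nearest coding gene. RXRB (chromosome 6, 33193588 to 33200665, minus strand) had no peak nearer than 22542 bp. Its 3 peaks held neither motif. Those with signal values of 91.0 and 41.7 were closest to COL11A2, a fibrillar collagen gene. The last (48.7) had VPS52 as its nearest coding gene, at 14442 bp, but lay 44 bp from a TSS of a long non-coding RNA gene. It was 48506 bp from RXRB, just inside the 50 kb limit. The nearest summit outside the window, on the opposite side of RXRB, was 114.6 kb away. RXRG, the other RXR gene and not among the 9, had none.

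Since long windows hold more peaks, the count was also given per 100 kb of window. STRA6 had 4.64 and RARA 4.22 peaks per 100 kb, densities above those of 97.8% and 97.3% of protein-coding genes. At each of them, only 3 of the 6 peaks had their nearest coding TSS at the gene itself. The STRA6 density counts 2 overlapping peaks apart, the weaker of them with a q-value above 0.05. CRABP2 (2.99) and RXRB (2.85) were above 92.3% and 90.8%, through peaks that were all nearer to other genes. RARG (0.847), PLIN2 (0.764), RXRA (0.576) and RARB (0.312) lay around or below the genome-wide median of 0.666, and LRAT was at 0. The median over the 9 genes was 0.847.

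For each motif, the interval of the share among the 24 peaks included the share in the list. The TEAD motif was within 100 bp of the summit in 6 of 24 (25%, interval 12 to 44.9%), against 23.0% of all peaks, and its shorter core CATTCC in 12 of 24, against 46.8%. Those with the full motif were 3 peaks at CRABP2, 2 at RARB and 1 at RARA. It was in 2 of the 12 peaks whose nearest coding TSS was at the named gene (16.7%, interval 4.7 to 44.8%). Of the 12 peaks nearer to another coding gene, 4 held it (33.3%, interval 13.8 to 60.9%). The AP-1 motif was found in 5 of 24 (20.8%, interval 9.24 to 40.5%), against 25.4% of all peaks, at STRA6 (3), RARA (1) and RARB (1). Both motifs were in 1 of 24, against 4.49% of all peaks. Neither motif was found in 14 of 24, or 58.3%, against 56.1%. The receptor repeat (any half-site of AGGTCA, of AGTTCA, of the variant GGTTCA or of the variant GGGTCA, followed in the same direction by another with 1, 2 or 5 bases between, on either strand) was in none of the 24 windows and in 0.341% of those of all peaks. In the RefSeq table, 20 promoters (250 bases before to 50 after the start) matched all 9 genes. The repeat was in 1 of them, that of RARB above, and in 0.259% of all 35116 promoters (0.0883% with a spacing of 5 bases). The TEAD motif was in 1, that of another RARB start site whose nearest summit was 31720 bp away, and in 3.46% of all promoters. A match describes letters and is not a measured binding site.

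The other genes of the pathway gave a wider view. Of 63 further retinoid genes, 38 had a peak under the same rule (60.3%, interval 48.0 to 71.5%), against 56.2% of protein-coding genes, and 13 had one within 2.5 kb of a TSS (20.6%, against 16.6%). By role, a peak was assigned to 10 of 16 genes of uptake and storage, 10 of 20 of synthesis and breakdown, 12 of 19 of receptors and partners, and 7 of 9 genes known to respond to retinoic acid (DHRS3 is in both the second and the last group). A summit lay within 2.5 kb of a TSS at 2, 3, 4 and 4 genes of these groups, the last being 44.4% of the responsive genes (interval 18.9 to 73.3%). No difference between these groups and all protein-coding genes was tested, and other choices of TSS were not tried for their counts within 2.5 kb. High signal values were found at NCOA3 (436.4), a coactivator, and at PPARD (323.5), a receptor that pairs with RXR and also binds retinoic acid. PNPLA2, a lipase of lipid droplets, followed with 318.7, and HOXB1, a target of retinoic acid in the embryo, with 316.2. The peaks at NCOA3 and HOXB1 were closest to those genes, at 48577 and 47219 bp from a TSS. Those of PPARD and PNPLA2 had their nearest coding TSS at FANCE and TSPAN4, although the PPARD summit lay inside the PPARD gene body. By number, TGM2, a transglutaminase induced by retinoic acid, had most peaks (11, with 3 within 2.5 kb of a TSS), and was singled out after the values were seen.

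Of the enzymes that make and clear retinoic acid, ALDH1A2, which forms it from retinal, had 7 peaks in a long window of 642.6 kb, or 1.09 per 100 kb, with the nearest summit 57 bp from a TSS and the strongest (281.0) closest to LIPC. ALDH1A1 and ALDH1A3 had none, in windows of 229.8 and 120.3 kb. CYP26A1 and CYP26C1, which degrade it, shared 1 peak with a signal value of 43.5, and CYP26B1 had none. These enzymes were likewise picked out after the values were seen.

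For scale, all 10 of a list of established YAP and TEAD target genes (among them CCN1, CCN2 and ANKRD1) had a peak under the same rule and 9 had one within 2.5 kb of a TSS. The strongest peak per gene had a median signal value of 509.6 over these 10 genes, of 112.3 over the 8 retinoid genes with a peak, and of 97.5 over all protein-coding genes with one. The difference between the lists was not tested.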

How the data were processed

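TEAD4 ChIP-seq was made by the authors from 3 replicates of LX-2 cells, with 2 inputs. They mapped reads to hg38 with Chromap and ran the ENCODE IDR pipeline on replicates 1 and 3, leaving out replicate 2 as not concordant. The peak caller is not given in the sources used here. The deposited list holds, per peak, a score (the scaled IDR, 830 to 1000), a signal value, a −log10 q-value and a summit offset. These meanings were read from its layout and values. It has no column per sample, so depth is unknown and no test over replicates could be made.

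Genes, TSSs and exons came from GENCODE release 44 and sequence from hg38, the build of the list, and all peaks end inside its chromosomes. Windows joined the gene body and 50 kb either side of every TSS. Each motif was sought in either orientation up to 100 bp from a summit. Promoters came from RefSeq (GRCh38.p14). Shares have Wilson 95% intervals. Peaks printed in full were the nearest and the strongest of each gene, and printed sequences those of the strongest peak with a TEAD motif and the strongest peak of genes with a summit within 2.5 kb of a TSS. The strongest STRA6 peak lies in a UTR and its sequence is not shown, and the first RARB sequence and the RARB promoter were added after the values were seen. The other retinoid genes named were those among the 5 with the highest signal value, with the exceptions given in the text, and some items are not reported here. The members and lists were chosen with earlier results of these data known. Motif search was tested on simulated data. Alternatives changed distance, TSSs, peaks and motifs. Python 3.11.15, numpy 2.4.6, pandas 2.3.3, scipy 1.17.1 and matplotlib 3.10.9 were used.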

Additional observations from a re-analysis of the deposited data

How the results depend on the processing

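Over 9 results, 61 alternatives were run, 60 of them planned. In 51 a count or median stayed within 1.5 times its value, or a share within its interval. A limit of 10 kb in place of 50 kb left 5 genes and 25 other retinoid genes with a peak, while the share of all protein-coding genes fell from 56.2% to 34.0%. It left 12 peaks with a median signal value of 95.6 and a median density of 0.326 peaks per 100 kb, against 0 over all protein-coding genes. Peaks above the median signal value of the list numbered 11, with a median of 122.8. Genes with a summit within 2.5 kb of a TSS fell from 5 to 0 with the start of the gene record as the only TSS (10.8% of protein-coding genes) and to 2 with the MANE Select TSS only, so this count depends on which TSSs are used. The TEAD core CATTCC was in 50% of the peaks, against 46.8% of the list. LRAT had no peak under any of these alternatives. No paired analysis was possible because replicates 1 and 3 are merged into 1 set of peaks, and neither could be left out in turn. The depth behind the list is unknown, so peaks missed for lack of reads cannot be told from places without binding.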
